A study of Mus musculus with 14 samples.

Results

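The wound and stress keratins *Krt6a*, *Krt6b*, *Krt16* and *Krt17* were followed in epidermal stem cells (EpdSCs) during forced expression of SOX9. They were chosen by gene symbol, and all 4 were found among the 54332 genes of the time-course table and passed the filter on low values (TPM, a length-scaled share of all transcripts, averaging 1 or more over 10 libraries) that 13110 genes passed. The libraries, 2 biological replicates a timepoint, came from CD1 mice labelled male that carried K14rtTA and TRE-myc-Sox9, a MYC-tagged *Sox9* switched on by doxycycline (DOX) only in cells in which the *Krt14* promoter drives the activator rtTA. D0 cells were from back skin at postnatal day 21, at the start of DOX, W1 cells from day 28, W2 cells from day 35 and W6 cells from day 63, so age rose with time on DOX. W12 cells came from newborn skin of this genotype grafted onto immunocompromised (*Nude*) female mice and then given DOX, so that grafting and 12 weeks of SOX9 cannot be told apart. Cells were sorted as negative for CD31, CD45, CD117, CD140a and CD34 and high for CD49f and Ly6A. No transgene-negative RNA was analysed here, and the number of mice behind an RNA replicate is not given in the sources used here. In sorted bulk samples a change in the share of cells that express a gene cannot be told apart from a change in RNA per cell.

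Keratins build the intermediate filaments of epithelial cells, and every filament pairs a type I with a type II keratin. Basal epidermal cells rest on the pair KRT14 (type I) and KRT5 (type II). KRT6A and KRT6B are type II keratins and KRT16 and KRT17 type I keratins that epidermis makes at wound edges and in hyperproliferative disease, while in unwounded skin they belong to the hair follicle, chiefly its outer root sheath and companion layer, and to nail and other stressed epithelia. KRT17 is also found in basal cell carcinoma.

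The sequences matter here because *Krt6a* and *Krt6b* are near copies of each other, and short reads are assigned to them by their few differences. In GENCODE M21 on GRCm38, all 4 genes are on the minus strand. *Krt6b* (chr15:101676023-101680287) and *Krt6a* (chr15:101689910-101694307), of 9 exons each, are 9.6 kb apart in the type II cluster, and *Krt5* follows 12.8 kb further. *Krt16* (chr11:100246091-100248902) and *Krt17* (chr11:100256217-100261029), of 8 exons each, are 7.3 kb apart in the type I cluster, with *Krt14* 38.5 kb from *Krt16*. The coding sequences of *Krt6a* and *Krt6b* were 97.6% identical, with 37 mismatches, and ran identical for up to 280 bases, against 70.4% between *Krt16* and *Krt17*. *Krt16* was nearer to *Krt14*, at 82.9%. Below are 60 coding bases of exon 4 of both *Krt6* genes, the stretch that separates them best, and 60 aligned bases of exon 5 of *Krt16* and *Krt17*, each 5′ to 3′ in the direction of transcription. Capitals mark the bases that differ within a pair, 10 in the first and 25 in the second.
Krt6a, chr15:101692484-101692543, minus strand: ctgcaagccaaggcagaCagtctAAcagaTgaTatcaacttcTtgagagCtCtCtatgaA
Krt6b, chr15:101678303-101678362, minus strand: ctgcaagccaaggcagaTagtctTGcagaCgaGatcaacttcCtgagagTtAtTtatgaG
Krt16, chr11:100247141-100247200, minus strand: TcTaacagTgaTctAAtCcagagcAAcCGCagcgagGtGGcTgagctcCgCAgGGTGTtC
Krt17, chr11:100257782-100257841, minus strand: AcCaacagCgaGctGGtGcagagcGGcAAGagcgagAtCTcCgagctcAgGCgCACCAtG

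Of all windows of 50 coding bases, the length of 1 read, 68.38% in *Krt6a* and 67.76% in *Krt6b* also occurred in a transcript of another gene, most of them in the other *Krt6* gene. In *Krt16* 41.81% were shared, 28.07% with the predicted gene *Gm11597* and 13.74% with *Krt14*, and in *Krt17* 4.79%. The split between *Krt6a* and *Krt6b* is therefore the least certain of the values below, and *Krt17* the most separable. *Gm11597* was listed under 1 TPM in every library, whereas *Gm5478*, which shared 13.76% of the *Krt6a* windows, had 10.7 and 8.04 TPM at W12 and less than 0.3 TPM before.

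The libraries as a whole were checked first. MYC-SOX9 had 89.6 and 45.6 TPM at D0 and was highest at W1, with 3387 and 3414 TPM. It had 1892 and 1469 TPM at W2, 1108 and 859 at W6 and 606 and 903 at W12. The EpdSC markers *Krt14*, *Krt5*, *Itga6*, *Itgb4* and *Ly6a* had at least 42.2 TPM in all 10 libraries and summed with *Cd34* to between 31043 and 46792 TPM, nearly all *Krt14* and *Krt5*. Beside the keratin rises at W6, *Itga6* fell by 1.15, *Itgb4* fell by 1.07, *Ly6a* fell by 0.94 and *Krt5* fell by 0.74 (adjusted *P* = 0.00335, 0.0187, 0.0146 and 0.0120), *Ly6a* also fell by 1.22 at W2 (adjusted *P* = 0.00905) and rose by 0.80 at W12 (adjusted *P* = 0.0211), and *Itgb4* fell by 1.73 at W12 (adjusted *P* = 0.00158); their part in the keratin changes was not tested. *Cd34*, whose protein the sort excluded, had 0.0614 and 0.383 TPM at D0, 2.66 and 5.04 at W6 and 16.5 and 32.001 at W12. D0 replicate 2 went against its label: *Xist* had 4.61 TPM in it and only 0.00103 TPM in D0 replicate 1, whereas *Ddx3y*, on the Y chromosome, had 0.0278 TPM in it and 32.1 TPM in replicate 1. Both W12 libraries held *Xist* (5.507 and 3.502 TPM) and *Ddx3y* (10.97 and 12.87 TPM). Most changes of the 4 keratins from D0 are therefore also given without D0 replicate 2. So are some counts or medians of the gene lists, but not changes of other single genes. TPM carry no depth, so no counting error is given, and changes below are limma's on log2(TPM + 1), a scale that understates those of low genes, with *P* values adjusted by Benjamini-Hochberg over the 13110 genes.

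*Krt6a* went from a low transcript to one of the most abundant in these cells. At D0 its replicates had 22.1 and 13.2 TPM, followed by 153 and 429 at W1, 201 and 304 at W2, 4424 and 2603 at W6 and 4564 and 5380 at W12. Only W1 and W2 overlapped. By its mean, 17.6 ± 6.34 TPM (SD, n = 2) at D0 and 4972 ± 577 at W12, it moved from place 6191 to place 12 among the genes of the table, a 282-fold ratio of TPM. It was already raised after 1 week, when its pair partner *Krt16* was not called. The log2 change from D0 was 3.83 ± 0.47 (SE) at W1 (adjusted *P* = 0.00192) and 3.78 at W2 (adjusted *P* = 0.00147). It reached 7.55 at W6 (adjusted *P* = 5.54e-05) and 8.10 at W12 (adjusted *P* = 1.25e-05). At W6 only 2 of the 13110 genes rose more. Without D0 replicate 2 the same changes were 3.48, 3.42, 7.20 and 7.74, with adjusted *P* from 0.0141 down to 0.000254.

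*Krt6b*, the near copy, stayed scarce for longer. It had 1.09 and 0.120 TPM at D0, 1.54 and 4.89 at W1, 5.51 and 3.33 at W2, 169 and 113 at W6 and 1342 and 1330 at W12. All W1 and W2 values lay above both D0 values, W1 and W2 overlapped, and W6 and W12 were each clear of every other timepoint. The mean rose from 0.605 ± 0.687 TPM at D0 to 1336 ± 7.91 TPM at W12, a ratio of 2207 that rests on 2 very low D0 values. On the log2 scale its change from D0 was 1.34 ± 0.43 (SE) at W1 (adjusted *P* = 0.0924, not past the threshold of 0.05), 1.80 at W2 (adjusted *P* = 0.0260), 6.51 at W6 (adjusted *P* = 6.90e-05) and 9.77 at W12 (adjusted *P* = 2.98e-06). At W12 only 2 genes rose more. The call at W2 was lost without D0 replicate 2 (1.34), W2 replicate 1 (1.5004) or W2 replicate 2 (2.09), whereas W6 and W12 held without each library. The W1 change was 1.94 and 0.73 without W1 replicate 1 and 2, and 1.79 and 0.89 without D0 replicate 1 and 2.

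*Krt16* did not follow its type II partners at first. It had 189 and 201 TPM at D0, 73.8 and 148 at W1, 43.7 and 46.7 at W2, 668 and 432 at W6 and 2402 and 2578 at W12. No pair of timepoints overlapped, and the order of the means from low to high was W2, W1, D0, W6, W12. Among all genes it stood at place 768 at D0, 3271 at W2 and 43 at W12. It fell by 2.09 ± 0.31 (SE) on the log2 scale from D0 to W2 (adjusted *P* = 0.00300), when the mean was 0.232 times that of D0, and was the only member called lower than D0 at any time. Its log2 change was -0.89 at W1 (adjusted *P* = 0.107), 1.46 at W6 (adjusted *P* = 0.00834) and 3.67 at W12 (adjusted *P* = 6.12e-05). The W1 change was -0.40 and -1.39 without W1 replicate 1 and 2, and -0.94 and -0.85 without D0 replicate 1 and 2. Without D0 replicate 2 the changes at W2, W6 and W12 kept their calls, at -2.04 (adjusted *P* = 0.0186), 1.502 (adjusted *P* = 0.0374) and 3.71. The sum of *Krt16* and *Krt17*, mostly *Krt17*, changed by 0.88 at W2 (adjusted *P* = 0.0750).

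*Krt17* was the most abundant of the 4 from D0 to W6 and the only one that peaked before W12. It had 1147 and 1430 TPM at D0, 3163 and 3458 at W1, 2438 and 2937 at W2, 11556 and 6011 at W6 and 3309 and 4545 at W12. The W6 replicates stood farther apart than the W6 and W12 means did, and W1 and W12 overlapped. At W6 it was the fifth most abundant gene in the table by its mean, 8783 ± 3920 TPM, after place 95 at D0, and fell to place 19 at W12. Its log2 change from D0 was 1.37 ± 0.30 (SE) at W1 (adjusted *P* = 0.0247), 1.06 at W2 (adjusted *P* = 0.0479), 2.70 at W6 (adjusted *P* = 0.000525) and 1.60 at W12 (adjusted *P* = 0.00372). The calls at W6 and W12 held without D0 replicate 2 (2.86, adjusted *P* = 0.00305, and 1.76, adjusted *P* = 0.0120). Those at W1 and W2 were near the threshold: the first was lost without D0 replicate 1 (1.21, adjusted *P* = 0.0715), W1 replicate 1 (1.43, adjusted *P* = 0.0996) or W1 replicate 2 (1.303, adjusted *P* = 0.165) and held without D0 replicate 2 (1.53, adjusted *P* = 0.0475), and the second was lost without any 1 of the 4 libraries compared (0.90 to 1.22, adjusted *P* from 0.0773 to 0.251).

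**Figure D1:**
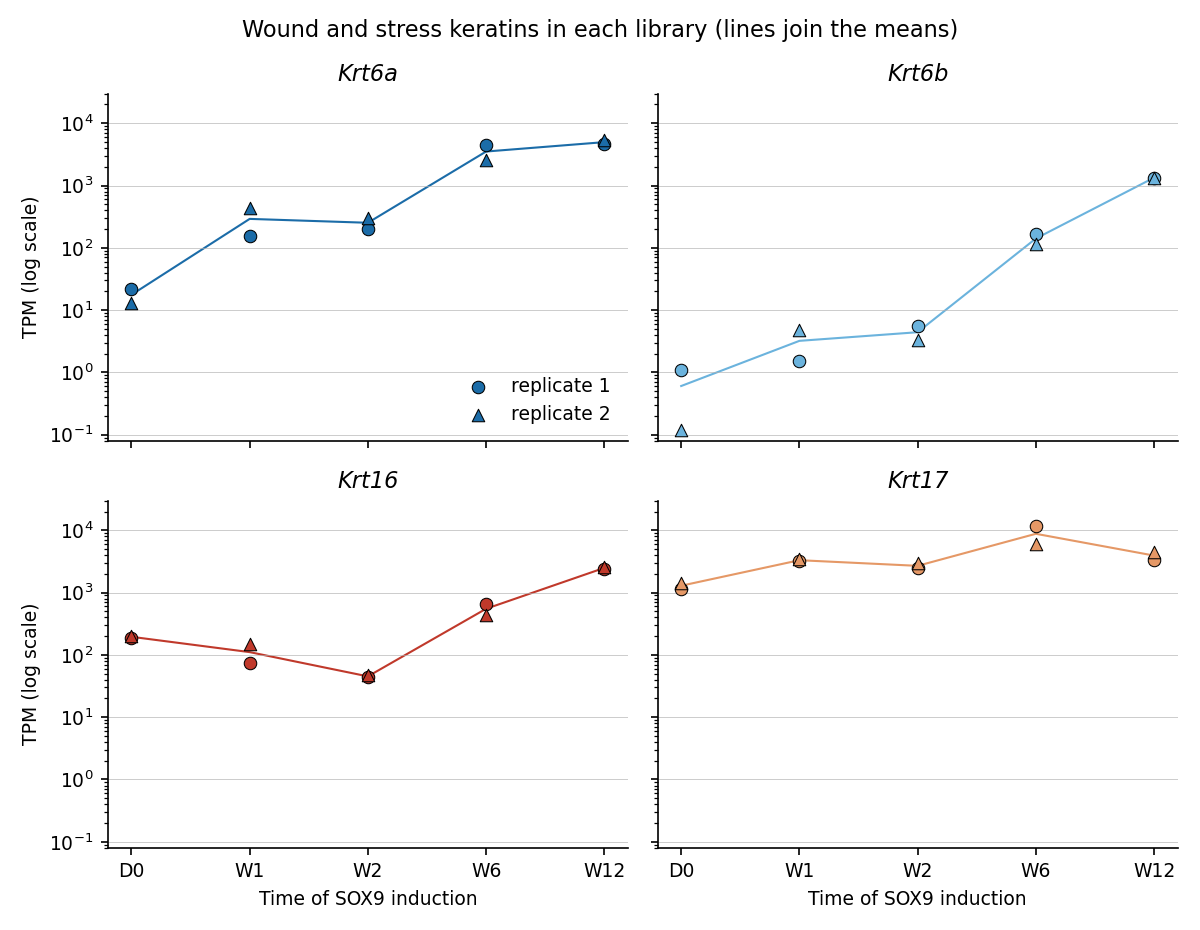
TPM (log axis) of the 4 keratins in each of the 10 libraries against the time of SOX9 induction. Circles are replicate 1, triangles replicate 2, and lines join the timepoint means. *Krt6a* and *Krt6b* are lowest at D0, *Krt16* is lowest at W2 with 43.7 and 46.7 TPM, and *Krt17* is highest at W6 with 11556 and 6011 TPM.

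In counts, 2 of the 4 keratins differed from D0 at W1, both higher, where 9.89% of all genes tested were called, 5.79% higher and 4.10% lower. At W2 all 4 were called, 3 higher and *Krt16* lower, against 15.7% of all genes (9.06% higher and 6.64% lower). All 4 were higher at W6, against 32.4% of all genes (18.3% higher and 14.1% lower), and at W12, against 43.0% (17.9% higher and 25.1% lower). Both libraries lay above both D0 libraries for 3 of the 4 at W1 and at W2 and for all 4 at W6 and at W12, as for 34.4, 35.1, 35.4 and 32.8% of all genes, so that such separation is common with 2 libraries a timepoint. Both lay below for *Krt16* at W1 and W2, as for 20.7 and 26.6% of all genes, and for none of the 4 at W6 and W12, where 27.1 and 41.9% of all genes did. Without D0 replicate 2 2 were called at W1, 2 (*Krt6a* and *Krt16*) at W2 and all 4 at both later timepoints. Median-ratio scaling of the libraries moved the share of higher genes among all those called from 58.6 to 44.8% at W1, from 57.7 to 45.7% at W2 and from 56.5 to 45.2% at W6, and under it all 4 members kept their direction but *Krt17* lost its call at W1 (adjusted *P* = 0.0579) and W2 (adjusted *P* = 0.0895), leaving 1 and 3 called.

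The steps between neighbouring timepoints differed in how many of the 4 moved. From W1 to W2 none of the 4 was called by limma, where 0.114% of all genes were (0.0458% higher and 0.0686% lower) and 1900 had an unadjusted *P* under 0.05, with log2 changes of -0.06 for *Krt6a* (95% interval -1.13 to 1.02), 0.46 for *Krt6b* (-0.53 to 1.44), -1.19 for *Krt16* (-1.89 to -0.50; -0.70 without W1 replicate 2) and -0.31 for *Krt17* (-0.999 to 0.388). Both W2 libraries lay below both W1 libraries for *Krt16* and *Krt17*, as for 33.7% of all genes, and above for none of the 4, against 27.6%. From W2 to W6 all 4 rose, against 16.3% of all genes called (7.99% higher and 8.31% lower), and in all 4 the libraries were separated upwards, as in 33.2% of all genes against 31.8% downwards. *Krt6b* rose by 4.71 (adjusted *P* = 0.00131), *Krt6a* by 3.77 (adjusted *P* = 0.00329), *Krt16* by 3.54 (adjusted *P* = 0.00114) and *Krt17* by 1.64 (adjusted *P* = 0.0127). The *Krt17* call was lost without W2 replicate 1 (1.505, adjusted *P* = 0.101) or W2 replicate 2 (1.77, adjusted *P* = 0.0607). It was the only one of the 3 steps after W1 in which all 4 were called higher.

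From W6 to W12 the 4 parted again. Of all genes 20.2% were called, 6.66% higher and 13.5% lower, against 2 of the 4 higher and 1 lower. Both W12 libraries lay above W6 for 3 of the 4, as for 19.4% of all genes, and below for *Krt17*, as for 40.9%. *Krt6b* rose by a further 3.26 ± 0.43 (SE, adjusted *P* = 0.00199) and *Krt16* by 2.21 ± 0.31 (adjusted *P* = 0.00239). *Krt6a* changed by 0.55 (95% interval -0.53 to 1.63, adjusted *P* = 0.460), although both W12 values lay above both W6 values. That change was 0.16 without W6 replicate 2 and 0.93 without W6 replicate 1. *Krt17* fell by 1.10 ± 0.30 on the log2 scale (adjusted *P* = 0.0358), where the median of all genes was -0.16. Median-ratio scaling, which brought that median to -0.02, gave -0.95 for *Krt17* with an adjusted *P* of 0.0985, and the call was also lost without W6 replicate 1 (-0.63, adjusted *P* = 0.155), W12 replicate 1 (-0.87, adjusted *P* = 0.226) or W12 replicate 2 (-1.33, adjusted *P* = 0.0712).

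**Figure D2:**
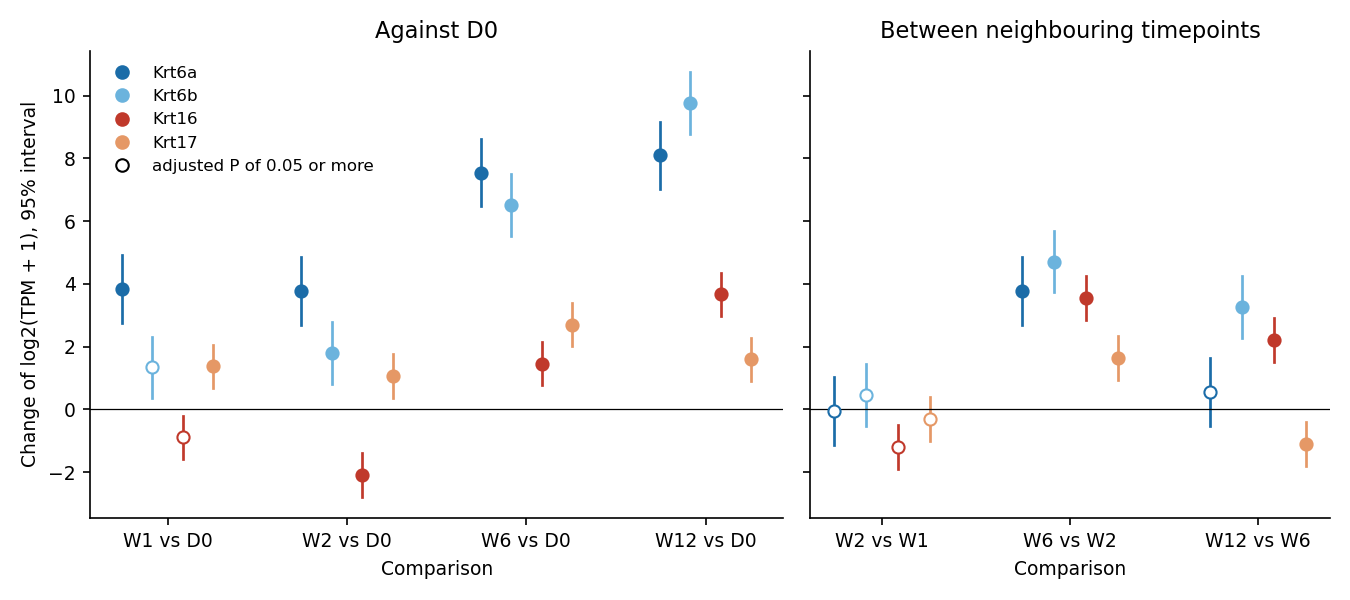
Change of log2(TPM + 1) of each keratin against D0 (left) and between neighbouring timepoints (right), from limma over 10 libraries with 95% intervals. Filled points have an adjusted *P* under 0.05 and open points do not. At W6 and W12 all 4 lie above 0, while at W2 *Krt16* lies at -2.09.

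TPM are per length, so the levels of the 4 can be set beside those of other keratins. Together they took 2.25 and 2.69% of the summed TPM of the 54 keratin genes at D0, 6.78 and 7.74% at W1, 5.95 and 6.80% at W2, 28.5 and 18.6% at W6 and 20.0 and 22.4% at W12. The share did not overlap between D0, the 2 early timepoints and the 2 late ones. At W12 they held places 3 to 6 among the keratins by mean TPM (*Krt6a*, *Krt17*, *Krt16*, *Krt6b*), behind *Krt14* and *Krt5*, whereas at D0 *Krt17* was at place 4, *Krt16* at 10, *Krt6a* at 12 and *Krt6b* at 24. All keratins together stayed between 4.52 and 6.18% of TPM in every library, against 6.04 and 6.11% at D0.

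The balance of the pair shifted from type I to parity. The ratio of *Krt16* plus *Krt17* to *Krt6a* plus *Krt6b* in TPM was 57.6 and 123 at D0, 20.9 and 8.30 at W1, 12.01 and 9.72 at W2, 2.66 and 2.37 at W6 and 0.967 and 1.06 at W12. Among these 4 genes an excess of type I transcripts was thus replaced by nearly equal amounts. The type I gene *Krt14* stayed above the type II gene *Krt5*, at 35371 and 37666 TPM against 7833 and 7343 at W12. The sum of both *Krt6* genes, which does not depend on how reads were split between them, was 23.2 and 13.3 TPM at D0, 155 and 434 at W1, 207 and 307 at W2, 4593 and 2716 at W6 and 5906 and 6710 at W12. Set against *Krt5*, the type II keratin of basal cells, this was 0.157 and 0.0909% at D0 and 75.4 and 91.4% at W12.

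Within each pair the minor member gained late. *Krt6b* made up 4.70 and 0.902% of *Krt6* TPM at D0, 0.994 and 1.13% at W1, 2.67 and 1.08% at W2, 3.68 and 4.17% at W6 and 22.7 and 19.8% at W12. *Krt16* made up 14.1 and 12.3% of *Krt16* plus *Krt17* at D0, fell to 1.76 and 1.57% at W2, and made up 42.1 and 36.2% at W12. W12 stood apart from every other timepoint in both shares. *Krt17* reached 46.7 and 23.6% of the level of *Krt14* at W6, against 3.84 and 4.60% at D0 and 9.35 and 12.1% at W12. These ratios are values per library without a test.

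**Figure D3:**
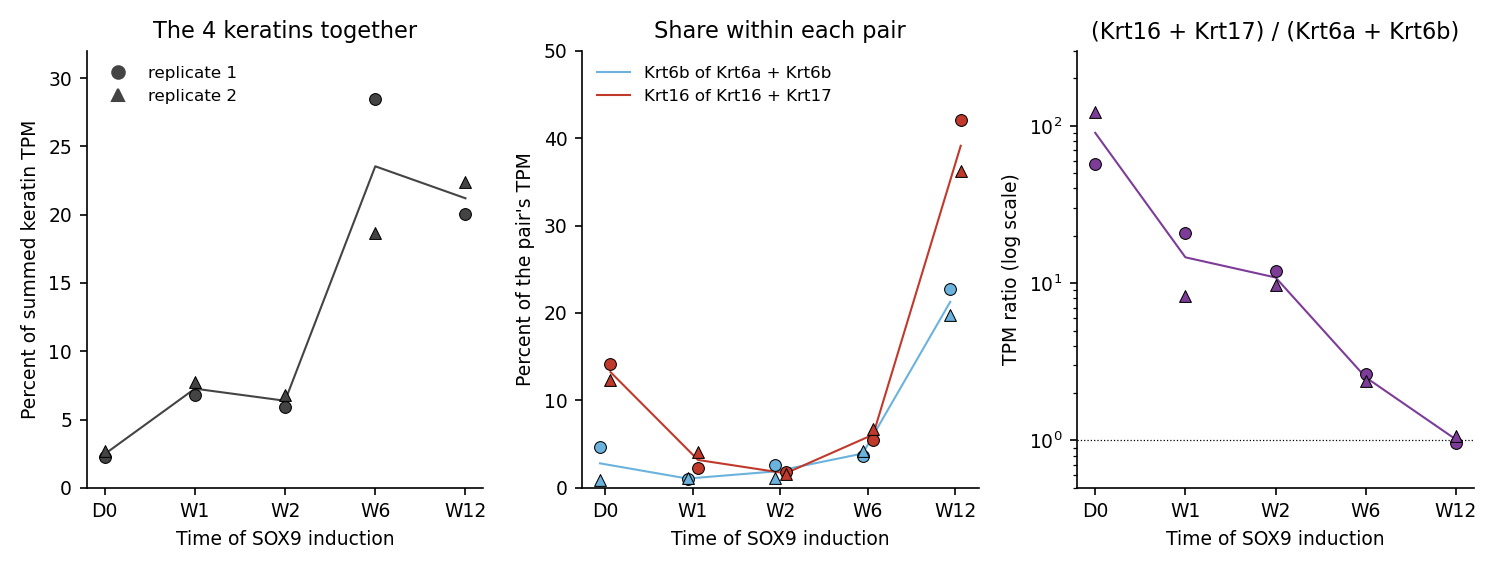
Left, the 4 keratins as a percent of summed keratin TPM; middle, *Krt6b* as a percent of both *Krt6* genes and *Krt16* as a percent of *Krt16* plus *Krt17*; right, the type I to type II ratio (log axis, dotted line at 1). Points are libraries (circle replicate 1, triangle replicate 2) and lines join means; the ratio goes from 57.6 and 123 at D0 to 0.967 and 1.06 at W12.

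The partner and paralog keratins differed among themselves: of the 4 tested, 1, 2, 2 and 1 were higher than D0 at W1, W2, W6 and W12, and 0, 0, 1 and 1 lower. Of all genes 5.79, 9.06, 18.3 and 17.9% were higher and 4.10, 6.64, 14.1 and 25.1% lower, so with 4 genes the W12 counts are near those of all genes. *Krt14* had 29902 and 31097 TPM at D0, between 19997 and 25508 from W1 to W6, and 35371 and 37666 at W12, and at no timepoint was its difference from D0 called (at W12, 0.26 ± 0.19 SE, adjusted *P* = 0.308). *Krt5* fell from 14774 and 14609 TPM at D0 to 7833 and 7343 at W12, by 0.95 on the log2 scale (adjusted *P* = 0.00270). *Krt42*, a type I gene of the *Krt17* neighbourhood, rose by 2.9996 at W2 (adjusted *P* = 0.00462), by 6.67 at W6 (adjusted *P* = 7.69e-05) and by 6.24 at W12 (adjusted *P* = 4.47e-05), from 0.97 and 0.84 TPM to 176 and 117 TPM, after 106 and 354 TPM at W6. *Krt79*, a keratin of the upper follicle, rose by 3.39 at W1 (adjusted *P* = 0.00442), by 3.87 at W2 (adjusted *P* = 0.00175) and by 4.14 at W6 (adjusted *P* = 0.000702), and its change at W12 was 0.91 (adjusted *P* = 0.173). *Krt75*, the companion layer keratin that sits beside *Krt6* in the follicle, stayed at or under 0.83 TPM in all 10 libraries and was not tested.

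Of 23 other keratins listed, 15 were tested, and at W12 4 were higher (*Krt7*, *Krt8*, *Krt18*, *Krt19*), 3 lower (*Krt15*, *Krt77*, *Krt80*) and 8 not called, beside 17.9 and 25.1% of all genes. The fit that left out D0 replicate 2 called 4 higher and 4 lower. *Krt18* and *Krt19* passed the filter on low values only through W12 and so had to differ there, and of the other 13 tested 2 were higher, with a median log2 change of 0.13. *Krt15*, a keratin of basal stem cells, fell by 5.37 (adjusted *P* = 5.73e-05), from 11241 and 11928 TPM to 322 and 242 TPM. *Krt77* fell by 5.83 (adjusted *P* = 0.000304). *Krt8*, a keratin of simple epithelia like *Krt18* and *Krt19*, rose by 6.33 (adjusted *P* = 0.000246), and each of these 3 was about 3 times higher in W12 replicate 2 than in replicate 1, with *Krt8* at 46.3 and 145 TPM. *Krt1* and *Krt10*, which mark cells leaving the basal layer, were not called against D0 at any timepoint.

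Genes that keratinocytes switch on beside these keratins at a wound were called higher in the greatest number at W12. Of 38 listed antimicrobial peptides, cornified envelope precursors, cytokines, EGFR ligands and proteases, 35 were tested. At W1 3 were higher and 8 lower, at W2 8 and 8, at W6 18 and 5, and at W12 30 and 1, where 5.79 and 4.10, 9.06 and 6.64, 18.3 and 14.1, and 17.9 and 25.1% of all genes were called in these directions. The list's median log2 changes were 0.00, 0.24, 0.98 and 3.49, against 0.09, 0.06, 0.08 and -0.08 over all genes tested. Of the 30 higher at W12, 5 (*Cxcl5*, *Il24*, *Mmp10*, *Mmp13* and *Plaur*) passed the filter only through the W12 libraries and so had to differ there, and of the other 30 tested 25 were higher, with a median of 3.02. Without D0 replicate 2 1, 2, 17 and 30 were higher at the 4 timepoints. *Slpi*, a secreted protease inhibitor, had 0.53 and 0.15 TPM at D0 and 1126 and 1566 at W12, a change of 9.97 ± 0.52 (SE, adjusted *P* = 6.81e-06). *S100a9*, a subunit of the antimicrobial complex calprotectin, rose by 8.80 (adjusted *P* = 1.77e-05), and *Sprr1b*, a cornified envelope precursor, by 8.10 (adjusted *P* = 9.20e-05). The only gene of the list that fell at W12 was *Hbegf*, an EGFR ligand, by 1.18 (adjusted *P* = 0.0118), from 181 and 317 TPM to 116 and 95.8 TPM; without D0 replicate 2 none was called lower. At W1, when *Krt6a* was called, 24 of the 35 were not.

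**Figure D4:**
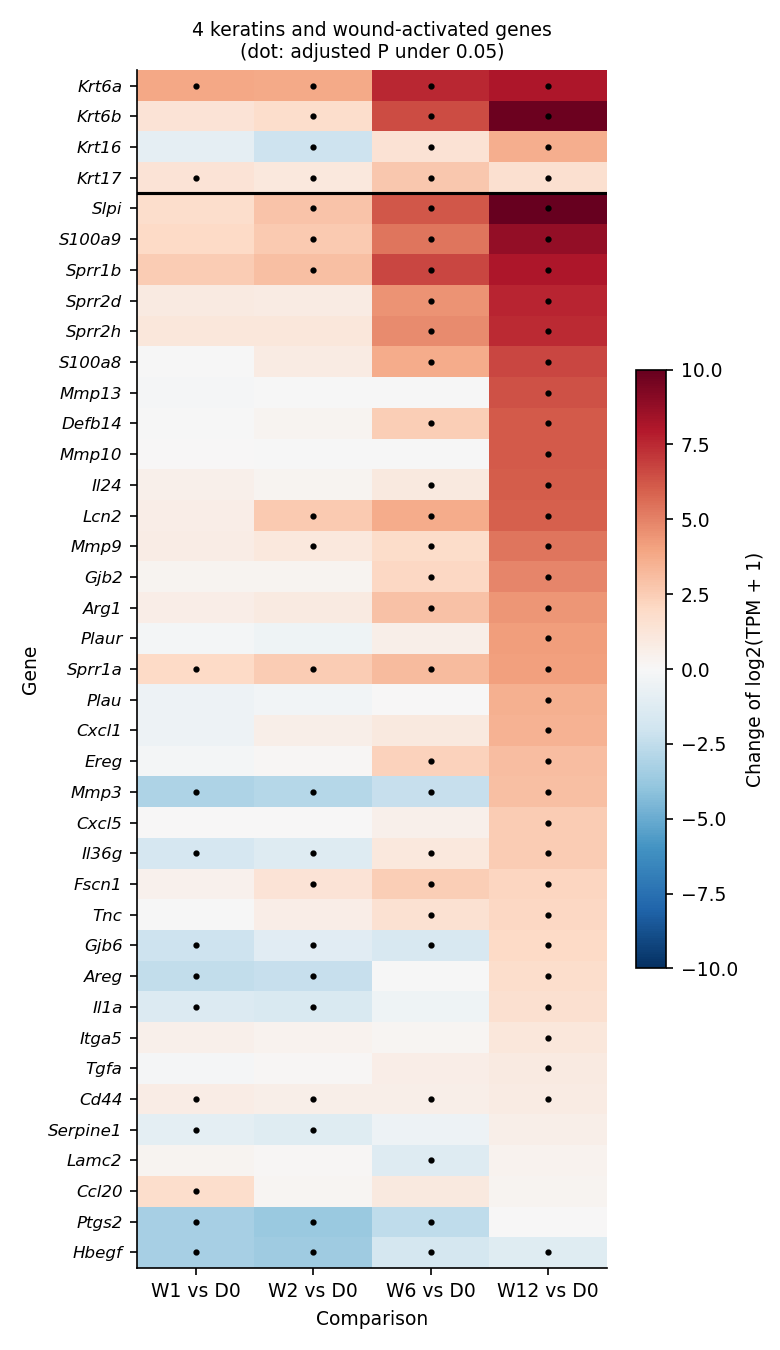
Change of log2(TPM + 1) from D0 (colour) of the 4 keratins, above the line, and of the 35 tested wound-activated genes, below it and ordered by their W12 change. Dots mark an adjusted *P* under 0.05: 3, 8, 18 and 30 genes of the list were higher, from left to right.

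Transcription factors and receptors known to act on these keratin genes were called lower more often than higher. Of 24 listed, 23 were tested, and 8, 6, 14 and 16 were lower than D0 at W1, W2, W6 and W12, with 1, 1, 0 and 0 higher. Of all genes 4.10, 6.64, 14.1 and 25.1% were lower at these timepoints, and under median-ratio scaling more genes of the whole table were called lower than higher at each of them. Median-ratio scaling or quantile normalization made 1 higher at W12. *Myc* fell by 3.10 (adjusted *P* = 0.00118) and the AP-1 subunit *Junb* by 2.66 (adjusted *P* = 0.00105) at W12. *Gli2*, a Hedgehog effector, was the one called higher at W1 and W2, with 3.29 and 3.84 TPM at W1 against 0.53 and 0.70 at D0. Without D0 replicate 2 the lower genes numbered 4, 3, 10 and 12.

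Genes of the immediate-early response and of stress during cell dissociation, to which several of these factors belong, were more often called lower than higher after D0. Their sum over 18 genes was 37529 to 65441 TPM at D0 and 8911 to 16534 TPM in the 8 later libraries, with 13, 12, 14 and 15 called lower at W1, W2, W6 and W12. With all 10 libraries, 4.10, 6.64, 14.1 and 25.1% of all genes were called lower at these timepoints. The list's median log2 changes were -2.48, -2.09, -2.17 and -2.54, and without D0 replicate 2 they were -2.05, -1.79, -1.89 and -2.17. At W12 *Fosb* fell by 3.98 (adjusted *P* = 0.00165) and *Egr1* fell by 3.62 (adjusted *P* = 0.000612), and *Ier3* rose by 1.15 (adjusted *P* = 0.00967). The heat shock gene *Hspa1a* rose by 1.33 at W2 (adjusted *P* = 0.0385), from 183 and 116 TPM to 376 and 359 TPM. Under median-ratio scaling 0 of the 18 genes were called higher at W2. The calls of *Hspa1a* at W2 and *Ier3* at W12 depended on D0 replicate 2. The D0 level of these genes moved with every comparison against D0, and its part in the changes of the 4 keratins was not tested. The steps from W2 to W6 and from W6 to W12 do not use D0.

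In normal skin *Krt6a*, *Krt16* and *Krt17* are found in the follicle. Of 19 follicle genes listed, 16 were tested, and 5, 8, 7 and 3 were higher than D0 at W1, W2, W6 and W12, with 0, 0, 0 and 6 lower. Of all genes 5.79, 9.06, 18.3 and 17.9% were higher and 4.10, 6.64, 14.1 and 25.1% lower. The follicle genes called higher numbered 4, 6, 6 and 3 without D0 replicate 2, with 0, 0, 0 and 4 lower. *Gpx2*, a glutathione peroxidase, rose by 8.80 at W12 (adjusted *P* = 2.95e-05), *Cd34*, a marker of bulge stem cells, by 4.31 (adjusted *P* = 5.77e-05) and *Tbx1* by 2.16 (adjusted *P* = 0.00120). The sort excluded cells with CD34 protein. *Cd34* had 16.5 and 32.001 TPM in W12 replicates 1 and 2, where the endothelial marker *Pecam1* had 26.1 and 59.8 TPM. Which cells carried *Cd34* was not tested. *Lrig1*, a stem cell marker of the upper follicle, fell by 2.28 (adjusted *P* = 0.00383) and *Lgr6* by 1.70 (adjusted *P* = 0.0130). The growth factors *Fgf18* and *Fgf5* stayed under 1 TPM throughout and were not tested.

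Summed markers of some other cell types were higher at W12 than at D0, and those of others were lower. The 3 endothelial markers summed to 28.9 and 66.8 TPM at W12 against 0.0598 to 0.142 at D0, led by *Pecam1*, which encodes CD31, with 26.1 and 59.8 TPM. The haemoglobin genes *Hbb-bs* and *Hba-a1* summed to 190 TPM in both W12 libraries against 16.4 and 16.9 at D0. The 7 immune markers summed to 102 and 126 TPM at W12 against 16.1 to 27.6 at D0, nearly all *Cd74*, while *Ptprc*, which encodes CD45, stayed at or under 0.327 TPM in all libraries. All 5 melanocyte markers reached 1 TPM in at least 1 W12 library, with sums of 10.9 and 12.5 TPM. Fibroblast markers summed to 1.70 and 3.27 TPM at D0, to 1.64 TPM in W6 replicate 1 and to 52.1 TPM, nearly all *Dcn*, in W6 replicate 2. At W12 they summed to 13.5 and 27.6 TPM, nearly all *Dcn*, with *Pdgfra* at or under 0.188 TPM and *Lum* at 0. The 4 Merkel cell markers summed to 79.5 and 251 TPM at W12, nearly all *Krt8* and *Krt18*, with *Krt20* at 0.258 and 0.544 TPM against 0 in both D0 libraries and *Atoh1* at 0. The 4 sebocyte markers summed to 20.9 and 21.3 TPM at W12 against 27.5 and 31.9 at D0. The 7 inner root sheath and hair shaft markers summed to 29.5 and 32.8 TPM at W12 against 248 and 347 at D0. Nearly all of this was *Gata3*, which the paper counts among the epidermal master regulators of D0 cells. The other 6 had at most 4.01 TPM in any library and no called fall from D0. The 5 markers of differentiating epidermis summed to between 1022 and 2267 TPM over all libraries, nearly all *Krt1* and *Krt10*. Among them *Ivl*, a cornified envelope precursor, rose by 2.02, 1.94, 3.08 and 2.82 at W1, W2, W6 and W12 (adjusted *P* = 0.00140, 0.00126, 8.92e-05 and 5.98e-05), *Flg* rose by 3.20 at W2 and 3.21 at W6 (adjusted *P* = 0.00815 and 0.00451), and *Lor* fell by 2.60 at W12 (adjusted *P* = 0.00190). At W12 the 4 keratins ran from 1330 to 5380 TPM, and the part of these other cells in their levels was not tested. At W6, when all 4 were called higher than D0, the endothelial sum was 0.589 and 1.35 TPM, above D0, and the immune sum 3.59 and 3.96 TPM, below D0. The sebocyte sum was then 42.2 and 61.8 TPM, with *Scd1* called higher (0.76, adjusted *P* = 0.0175), the melanocyte sum 4.48 and 11.7 TPM against 1.22 and 4.89 at D0, and the Merkel sum 1.83 and 9.64 TPM against 0.106 and 0.508.

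The tested genes whose log2(TPM + 1) followed each keratin most closely over the 10 libraries differed between the members. These Pearson correlations rest on 5 timepoints of 2 libraries that share their means, and are given as a description. For *Krt6a* they included *Bloc1s2* (*r* = 0.988), *Hook1* (0.985) and *Sprr1b* (0.980), the last of which had 3.53 and 0.50 TPM at D0, 473 and 155 at W6 and 694 and 741 at W12. For *Krt6b* they were *Sprr2h* (0.994), another cornified envelope precursor, *Fcmr* (0.990), the potassium channel *Kcnn4* (0.989) and *Sh2d5* (0.988). The genes nearest to *Krt16* were *Mpp1* (0.972), *Zcchc10* (0.970), *Uchl3* (0.962) and *Shfl* (0.961), which dipped at W2 as it did; *Uchl3* had 93.3 and 71.1 TPM at D0, 49.0 and 45.7 at W2 and 154 and 155 at W12. *Krt17* was matched by genes with their highest mean at W6, *Ephx4* (0.965), the glucose transporter *Slc5a1* (0.964), *Lrrc59* (0.958) and *Ecd* (0.957). With a pseudocount of 0.1 the genes nearest to *Krt6a*, *Krt6b* and *Krt16* were still *Bloc1s2*, *Sprr2h* and *Mpp1*, and the one nearest to *Krt17* was *Lrrc59*. By Spearman's rank correlation none of these was nearest: *Bloc1s2* was at rank 20, *Sprr2h* at 4, *Mpp1* at 13 and *Lrrc59* at 3.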

How the data were processed

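RNA-seq libraries of sorted EpdSCs were made by the authors with a SMARTer low-input kit and sequenced as 50-base paired ends. The authors trimmed reads with Skewer, quantified them with Salmon 1.4.0 against GENCODE M24 transcripts of GRCm38 with the transgene added, and summarized transcripts to genes with Tximport 1.12.3. The deposited values are TPM, which sum to 1000000 in each library, so depth is unknown. Salmon divides reads shared by similar transcripts among them by estimation, which could move TPM between *Krt6a* and *Krt6b* and from *Krt14* to *Krt16* and *Krt17*. The 4 libraries of E15.5 placode cells were not used: their table holds only the authors' comparison, with log2 fold changes, standard errors and *P* values.

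The 13110 genes averaging 1 TPM or more were tested on log2(TPM + 1) with limma 3.58.1 (R 4.3.3) in 1 fit of 5 timepoint means over 10 libraries, with eBayes and a variance trend, and *P* values were adjusted by Benjamini-Hochberg within each of 7 comparisons. The threshold was 0.05. The study used a count test, which TPM do not permit. The fitting code was checked on simulated libraries first. The members and gene lists were chosen with earlier results of these data known. Named genes are the members, the 4 most correlated with each (1 of them is not reported here), and from each list up to 3 largest rises and 2 largest falls at W12, plus any gene needed to say that it was not tested; *Krt7*, *Krt80*, *Krt79*, *Gli2*, *Hspa1a* and genes beside a count or a marker sum were named after their values were seen. *Il1f9* was matched as *Il36g*. Coding sequences and positions are from GENCODE M21 on GRCm38, aligned globally. Python 3.11.15 was used for the other steps. Alternatives covered pseudocount, filter, scaling, samples in the fit, a replicate block, leaving out libraries and summing similar genes.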

Additional observations from a re-analysis of the deposited data

How the results depend on the processing

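Of 438 values of a keratin in a comparison under another setting, 378 kept direction and call, 47 lost the call, 3 gained it and 10 reversed. Sums of similar genes were counted here under each keratin that they held, so these values are not all of a single gene. *Krt6a* and *Krt6b* at W6 and W12 against D0 were called under every alternative run, and *Krt16* and *Krt17* under all but the pooling with *Krt14*. With all genes above 0 TPM, *Krt17* lost its call at W1 and W2 (1.37 and 1.06), from W2 to W6 (1.64) and from W6 to W12 (-1.10), and *Krt6b* at W2 (1.80); more genes were then adjusted for and the standard errors grew. With only the 4 libraries compared, the same values were lost, and *Krt6a* at W1 (3.83). The 8 ungrafted libraries alone lost *Krt6b* (1.80) and *Krt17* (1.06) at W2. Median-ratio scaling lost *Krt17* at W1 (1.24), W2 (0.97) and from W6 to W12 (-0.95). At W2 *Krt17* was also lost with quantile normalization (0.97), a total without other keratins (1.04) and no variance trend (1.06). The cause was not tested for the scalings and the trend.

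A sum mostly follows its more abundant gene by construction. *Krt6a* plus *Krt6b* gave 3.81 at W1, -0.043 from W1 to W2 and 0.83 from W6 to W12. *Krt16* plus *Krt17* gave 1.21 at W1, 0.88 at W2 and -0.48 from W6 to W12, and with *Krt14* added -0.37, -0.41, 0.10 and 0.42 at W1, W2, W6 and W12, 0.51 from W2 to W6 and 0.32 from W6 to W12.

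Leaving out 1 library each gave 0.73 to 1.94 for *Krt6b*, -1.39 to -0.40 for *Krt16* and 1.21 to 1.53 for *Krt17* at W1, 1.34 to 2.25 for *Krt6b* and 0.90 to 1.22 for *Krt17* at W2, -0.79 to 0.68 for *Krt6a* -0.15 to 1.06 for *Krt6b* and -1.69 to -0.70 for *Krt16* from W1 to W2, 0.16 to 0.93 for *Krt6a* from W6 to W12, and 1.17 to 2.11 and -1.57 to -0.63 for *Krt17* from W2 to W6 and from W6 to W12. Members called numbered 1 to 2 at W1 and 2 to 3 at W2 without a library. They numbered 1 at W1 and 2 at W2 with all genes above 0 TPM, 0 and 2 with only 4 libraries, 2 and 2 with the ungrafted libraries, and 1 and 3 with median-ratio scaling.

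Same-numbered libraries are not known to share anything. Their deviations correlated between -0.13 and 0.18, so they were not taken as paired. With the replicate block *Krt17* lost its call at W2 (1.06, adjusted *P* = 0.0726) and from W6 to W12 (-1.10, adjusted *P* = 0.0555), no other keratin call changed, and 6 rather than 15 genes were called from W1 to W2 and 1396 rather than 2137 from W2 to W6. With crossed numbers, added after seeing the data, 1225, 4291 and 2666 genes were called at W1, W6 and from W6 to W12.

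Genes called ran from 377 (without W1 replicate 2) to 1773 at W1 (1296 as reported), from 652 (without W2 replicate 2) to 2568 at W2 (2058 as reported), from 1094 (only 4 libraries) to 5047 at W6 (4251 as reported), and from 3156 (a log2 change of at least 1) to 6168 at W12 (5642 as reported). From W1 to W2 they ran from 0 to 80, from W2 to W6 from 207 (without W2 replicate 1) to 2626, and from W6 to W12 from 761 (without W12 replicate 1) to 2846 (2642 as reported). List counts that moved by over 1.5 times were small. With a mean of at least 5 TPM, 0 other keratins were higher at W2 and W6 or lower at W1 and W2, and 0 transcription factors higher at W1 and W2. The other changes, added after seeing the data, were 1 other keratin higher at W2 under the scalings and 0 at W6 under quantile normalization, 0 immediate-early genes higher at W2 under median-ratio scaling, and without D0 replicate 2, 1 other keratin higher at W1 and at W2, 2 and 5 lower at W2 and W6, 0 immediate-early genes higher at W2 and W12, 4 and 3 transcription factors lower at W1 and W2, and 1 and 2 wound-activated genes higher at W1 and W2 with 0 lower at W12. Median-ratio scaling and quantile normalization made 1 transcription factor higher at W12. TPM carry no depth, so counting error could not be set beside any value.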
